A study of Mus musculus with 12 samples.

Results

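Stellate cell and extracellular matrix genes were examined in mouse liver as 35 genes picked by name, namely collagens, laminins, proteoglycans, matrix glycoproteins, crosslinking enzymes, matrix proteases with their inhibitors, stellate cell and myofibroblast markers, and the growth factor Tgfb1. All 35 names were found among the 55385 features of the table, once each, and 34 of them were among the 16378 features that entered the tests, which needed an average TPM (transcripts per 1000000) of 1 or more. The exception was Lox, whose mean was 0.778 TPM. The RNA-Seq compared 12 livers in 3 groups of 4 male C57BL/6 mice, 7 weeks old, that received adenovirus at 500000000 pfu in total and were collected on day 7. The Ad-Ctrl group received the Lac control virus with the empty vector pAdV5. The Ad-shmGULL group received virus expressing an shRNA against the mouse lncRNA mGULL with pAdV5, and the Ad-shmGULL+hGULL group received the same shRNA virus together with the human lncRNA hGULL (the rescue). Every mouse therefore carried adenovirus, and no uninfected liver was analysed here. The knockdown came from adenoviral delivery and not from a germline deletion, and the levels of mGULL and hGULL were not analysed here. The groups were set up to ask whether the human transcript restores what is altered when the mouse transcript is depleted.

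Hepatic stellate cells are the vitamin A-storing pericytes of the liver sinusoid, and they are known as the main source of scar collagen when they turn into contractile, alpha-smooth muscle actin-positive myofibroblasts. The matrix they share with portal fibroblasts and endothelial cells is built from fibrillar collagens, basement membrane collagen and laminin, and proteoglycans. It is crosslinked by lysyl oxidases and turned over by metalloproteinases held in check by TIMP inhibitors. TGF-beta and PDGF are the best known signals that activate these cells.

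Promoter sequence is shown for 3 members described below: the fibrillar collagens Col3a1 and Col1a2, and the membrane-bound collagenase Mmp14. Each run is the 250 bases upstream of the annotated gene start, from RefSeq on GRCm38.p6, plus strand, written 5′ to 3′. They lie at chr1:45311288-45311537, chr6:4505368-4505617 and chr14:54431348-54431597, respectively. Capitals mark matches on either strand to the TATA box searched as TATAAA, the GC box searched as GGGCGG, the CCAAT box searched by those letters, and the SMAD-binding CAGA box searched as CAGACA.
Col3a1: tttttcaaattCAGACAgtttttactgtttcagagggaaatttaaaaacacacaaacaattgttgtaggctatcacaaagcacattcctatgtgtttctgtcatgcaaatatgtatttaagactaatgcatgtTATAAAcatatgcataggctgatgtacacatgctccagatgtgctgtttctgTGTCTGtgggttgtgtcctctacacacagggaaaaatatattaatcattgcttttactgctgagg
Col1a2: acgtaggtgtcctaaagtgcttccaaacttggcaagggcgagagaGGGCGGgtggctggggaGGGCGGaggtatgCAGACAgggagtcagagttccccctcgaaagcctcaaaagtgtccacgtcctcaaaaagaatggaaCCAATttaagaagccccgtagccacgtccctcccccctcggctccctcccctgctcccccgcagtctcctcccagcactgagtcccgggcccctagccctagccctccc
Mmp14: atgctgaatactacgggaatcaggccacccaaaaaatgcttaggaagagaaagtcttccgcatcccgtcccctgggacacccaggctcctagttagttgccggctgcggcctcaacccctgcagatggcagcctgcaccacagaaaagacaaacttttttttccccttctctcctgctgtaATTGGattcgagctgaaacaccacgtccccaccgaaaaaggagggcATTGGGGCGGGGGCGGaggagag
The Col3a1 run held a TATA box 117 bases before the gene start and CAGA boxes at 239 and 65 bases. The Col1a2 run held GC boxes at 205 and 188 bases, a CAGA box at 175 bases and a CCAAT box at 109 bases. The Mmp14 run held no TATA box, a CCAAT box (as ATTGG) at 69 and 23 bases, and GC boxes at 19 and 13 bases, the first of which shares bases with the nearer ATTGG. Promoters were matched for 23 of the 35 members, giving 25 runs of the same length. TATAAA was found in 3 of these 25 and in 12.4% of all 32851 promoters, GGGCGG in 16 and in 32.7%, CCAAT in 10 and in 33.8%, and CAGACA in 6 and in 17.1%. TGANTCA (the AP-1 site) was found in 2 of the 25 and in 6.75% of all promoters, and the CArG box in 0 and in 1.47%. These matches are letters in a window and were not tested as sites.

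Among the members, Fn1 (fibronectin) was the most abundant at a mean of 601 TPM over the 12 mice, followed by Ecm1 at 94.8 TPM and Sparc at 60.2 TPM. Tissue identity was plain from its markers, since 7 hepatocyte markers together gave 70415 to 113807 TPM per liver. Their means were 93329, 87788 and 77553 TPM in Ad-Ctrl, Ad-shmGULL and rescue livers, with overlapping ranges. The 35 members together gave 1151 to 1302 TPM in Ad-Ctrl, 1115 to 1373 TPM in Ad-shmGULL and 1261 to 1327 TPM in rescue livers. In whole liver, fewer cells of a type and less RNA per cell cannot be told apart.

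One control liver stood apart from the other 3 in these genes. Ad-Ctrl mouse 1 had the highest control value for 31 of the 35 members and the highest of all 12 mice for 10 of them. Its ratio to the mean of the other 3 control mice had a median of 1.56 over the 34 tested members and of 2.51 over the 4 fibrillar collagens, against 1.10 over all tested genes. The same ratio had a median of 2.57 over lymphocyte markers, 1.75 over neutrophil markers, 1.57 over smooth muscle markers, 1.38 over endothelial markers and 1.32 over macrophage markers. It was 1.21 over stellate cell markers outside the members, 1.18 over portal fibroblast and mesothelial markers, 1.17 over cholangiocyte markers and 0.872 over hepatocyte markers. Ad-Ctrl mouse 2 gave the lowest value of all 12 mice for 18 members, and Ad-Ctrl mouse 3 for 11 others. High values were not limited to Ad-Ctrl mouse 1. Ad-shmGULL mouse 2 was the highest of all 12 mice for 14 members and the highest knockdown mouse for 23 of the 35. However, its ratio to the mean of the other 3 knockdown mice had a median of 1.203 over the 34 tested members, against 1.154 over all tested genes. The members as a set were thus only a little higher in that mouse than genes at large, unlike in Ad-Ctrl mouse 1.

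**Figure D1:**
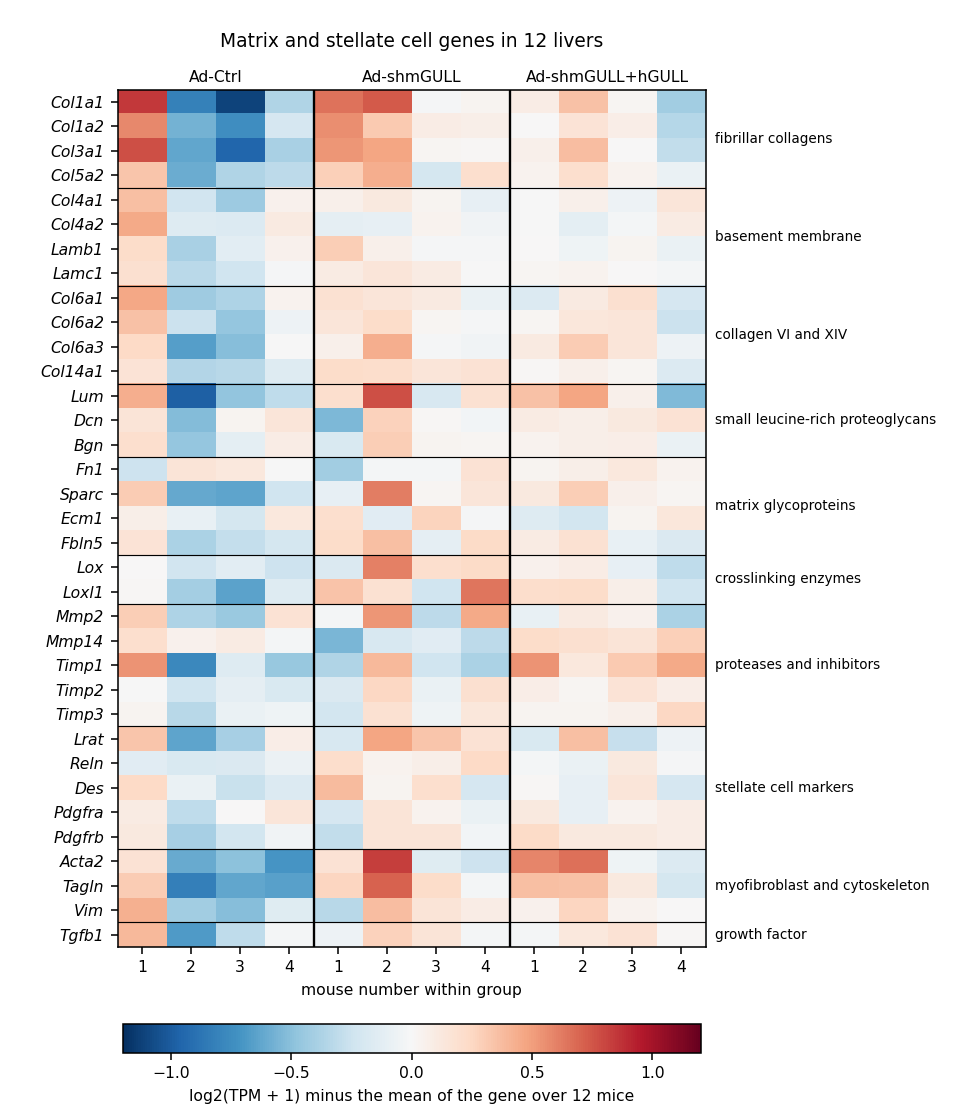
Level of the 35 members in each mouse, as log2(TPM + 1) minus the mean of that gene over the 12 mice. Rows are genes grouped by role and columns are mice 1 to 4 of each group. Ad-Ctrl mouse 1 is red across most rows while Ad-Ctrl mice 2 and 3 are blue, and Mmp14 is bluest in the Ad-shmGULL mice.

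Knockdown of mGULL was compared with control virus first. Matrix genes were mostly a little higher in Ad-shmGULL livers, with Tagln, Col1a1, Lum, Col3a1 and Acta2 showing the largest log2 fold changes (0.56 to 0.74), and the collagenase gene Mmp14 lower. None of these differences passed an adjusted p under 0.05. The log2 fold change was positive for 29 of 34 members with a median of 0.21, beside a median of 0.087 over all tested genes, and 28 of 34 lay above that median. At the threshold of the study, which asks for more than 0.5 on the log2 scale together with p under 0.05 before adjustment, Loxl1 and Tagln were higher and 0 members were lower. That is 2 of 34 members (5.88%), where 5.35% of all tested genes were called higher and 2.30% lower. At an adjusted p under 0.05 (limma, Benjamini-Hochberg over all tested genes), 0 members were called in either direction, where 2.44% of all genes were called higher and 0.794% lower, and 7 members had p under 0.05 before adjustment. The smallest adjusted p of a member was 0.0518, for Mmp14. Groups did not overlap for 2 members, Reln (higher) and Mmp14 (lower), against 6.93% and 2.06% of all genes.

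These counts turned on single livers. Without Ad-Ctrl mouse 1, 11 members were higher at the study threshold (7.81% of all genes) and 6 were higher with an adjusted p under 0.05 (4.76% of all genes). The 6 were Col1a1, Col1a2, Col3a1, Col14a1, Sparc and Tagln. That mouse was high in most of these same members, so leaving it out raises their knockdown values by construction. The 6 calls are therefore no separate support, and this holds for all values without that mouse below. Without Ad-Ctrl mouse 3, the adjusted p was 0.552 for Col1a1 and 0.613 for Col3a1. The study threshold count was 5 without Ad-shmGULL mouse 3 (6.92% of all genes), and it was 1 without Ad-Ctrl mouse 2 (3.92%) or without Ad-Ctrl mouse 3 (4.86%). With the libraries rescaled by their median of ratios, which takes the median over all genes to -0.003, 28 of 34 members were positive and the median of the members was 0.13. Single members shifted by -0.10 to -0.05 under that scaling.

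**Figure D2:**
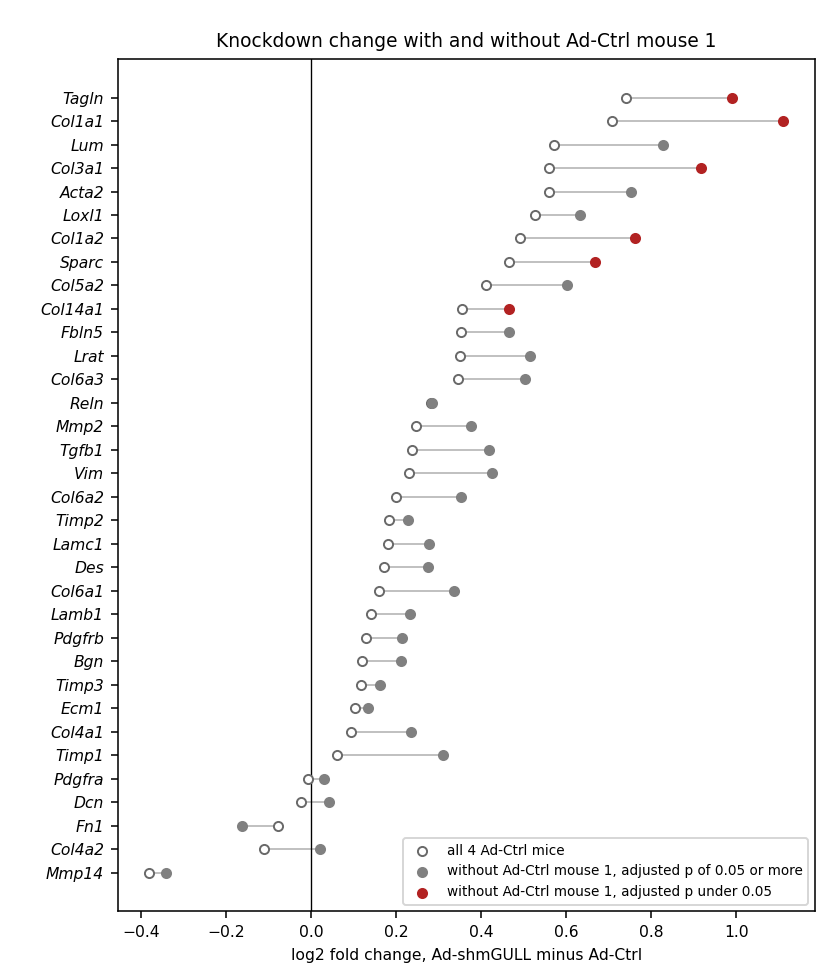
Log2 fold change of Ad-shmGULL minus Ad-Ctrl for the 34 tested members, with all 4 Ad-Ctrl mice (open circles) and without Ad-Ctrl mouse 1 (filled circles, red where the adjusted p was under 0.05). Leaving out the mouse moved most members to the right, Col1a1 from 0.71 to 1.11, and 6 circles are red.

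Rescue with hGULL was compared with the knockdown next. Mmp14 was the one member past the study threshold, with a higher level in rescue livers, and Col14a1 was the one member whose rescue mice all lay below the Ad-shmGULL mice. The 4 fibrillar collagens had negative values, from -0.34 to -0.13. The log2 fold change was positive for 13 of 34 members with a median of -0.078, beside a median of 0.093 over all tested genes, and 6 members lay above that median. Under median of ratios scaling 6 members were positive and the median was -0.16. The study threshold was passed by 1 of 34 members upward and by 0 downward, where 2.33% of all genes were called higher and 0.672% lower. No gene in the table had an adjusted p under 0.05 in limma, and the single member with an unadjusted p under 0.05 was Mmp14. The count at the study threshold was 2 without Ad-Ctrl mouse 1 (2.44% of all genes) or Ad-shmGULL mouse 2 (4.40%), and 0 without Ad-shmGULL mouse 1 (1.54%) or rescue mouse 4 (2.36%). Non-overlapping groups were found for Mmp14 (higher) and Col14a1 (lower), where 5.40% of all genes were apart and higher and 0.983% apart and lower.

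Against control virus, rescue livers showed the smooth muscle-type cytoskeletal genes Acta2 and Tagln past the study threshold, both higher. The log2 fold change was positive for 32 of 34 members, but the median of the members and of all tested genes was the same to 2 decimals (0.17), and 17 of 34 lay above it. Under median of ratios scaling 17 of 34 members were positive. The 2 members called higher compare with 6.84% of all genes, and the 0 called lower with 0.641%. At an adjusted p under 0.05 (limma) 0 members were called, where 2.12% of all genes were called higher and 0.0244% lower, and 2 members had an unadjusted p under 0.05. Timp2 was the one member whose groups did not overlap, higher in rescue mice, where 21.4% of all genes were apart and higher and 0.855% apart and lower. Without Ad-Ctrl mouse 1, 8 members were higher at the study threshold (9.60% of all genes), and Tagln and Sparc had an adjusted p under 0.05 (6.38% of all genes). The count of 2 was 0 without Ad-Ctrl mouse 2, 3 or 4 (4.76%, 6.63% and 7.38% of all genes) or without rescue mouse 1 (5.60%), and it was 1 without rescue mouse 2 (5.52%). This comparison shares its control mice with the first and its rescue mice with the second. The first and second share the Ad-shmGULL mice, which enter them with opposite sign. A deviation in those mice alone would give opposite values in both, so the 3 sets of values are not independent.

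**Figure D3:**
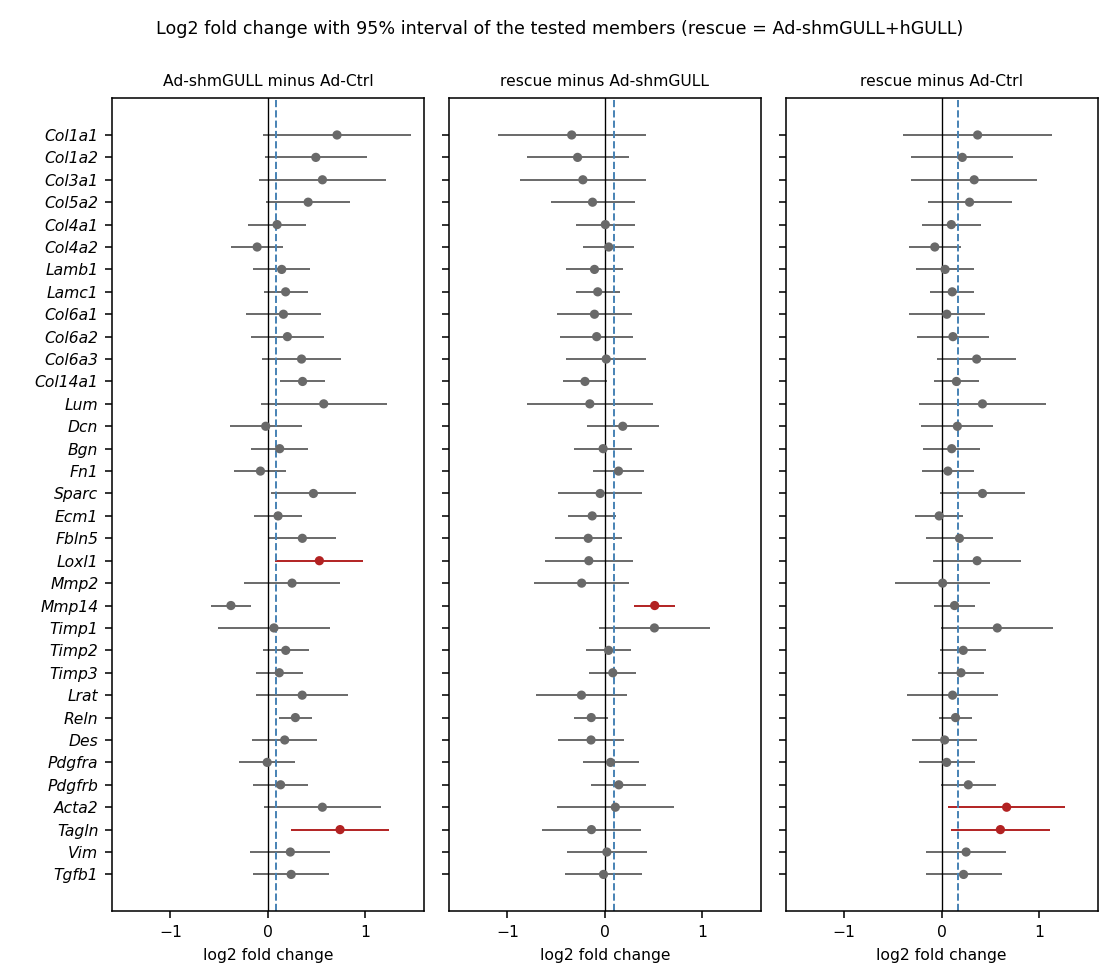
Log2 fold change (points) with its 95% interval (lines) for the 34 tested members in the 3 comparisons. Red marks members past the study threshold, the solid line is 0 and the dashed line is the median over all tested genes (0.087, 0.093 and 0.17). Mmp14 lies left of both lines in the first panel and right of both in the second.

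The fibrillar collagens form the rope-like fibers of scar tissue. Col3a1 (chr1:45311538-45349706), the chain of collagen III, was 50.2, 18.4, 14.5 and 21.8 TPM in Ad-Ctrl mice 1 to 4, 42.2, 40.6, 29.5 and 29.2 TPM in Ad-shmGULL mice, and 30.3, 37.6, 29.1 and 23.4 TPM in rescue mice. Ad-Ctrl mouse 1 was above every knockdown mouse, and the other 3 controls were below every knockdown and every rescue mouse. After knockdown the log2 fold change was 0.56 (SE 0.30, 95% interval -0.09 to 1.21, adjusted p = 0.319), and without Ad-Ctrl mouse 1 it was 0.92 (SE 0.19, adjusted p = 0.0221). Col1a1 (chr11:94936224-94953042), the alpha 1 chain of collagen I, was 42.8, 12.9, 10.3 and 18 TPM in controls, 37.2, 39.5, 23.1 and 23.9 TPM after knockdown, and 24.9, 30.0, 23.8 and 17.3 TPM in rescue mice. Its mice were ordered in much the same way, except that rescue mouse 4 lay just below Ad-Ctrl mouse 4. After knockdown it differed by 0.71 on the log2 scale (SE 0.35, adjusted p = 0.280), and 1.11 without Ad-Ctrl mouse 1 (SE 0.24, adjusted p = 0.0267). Col1a2, the partner chain of collagen I, had means of 8.97 ± 4.47, 12.2 ± 2.14 and 9.90 ± 1.57 TPM (SD, n = 4) in control, knockdown and rescue mice. Without Ad-Ctrl mouse 1 its log2 fold change after knockdown was 0.76 (adjusted p = 0.0286) in place of 0.49 (adjusted p = 0.277). Col5a2, a collagen V chain that regulates fiber diameter, had means of 2.26 ± 0.983, 3.26 ± 0.767 and 2.86 ± 0.312 TPM. Its RefSeq gene lies 24624 bp from Col3a1 on chromosome 1.

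Summed over the 4 fibrillar genes, the level was 112, 39.2, 32.2 and 50.3 TPM in Ad-Ctrl, 98.1, 96.7, 65.5 and 66.9 TPM in Ad-shmGULL, and 68.0, 82.2, 66.3 and 50.8 TPM in rescue livers. The control mice thus spanned a wider range than the other 8 mice together. In rescue minus knockdown the 4 genes were at -0.34 for Col1a1, -0.28 for Col1a2, -0.22 for Col3a1 and -0.13 for Col5a2, with adjusted p from 0.667 to 0.826. The ratio of the collagen I chains, Col1a1 over Col1a2, ranged from 1.86 to 3.13 over the 12 mice, and its group means were 2.19 ± 0.404, 2.51 ± 0.435 and 2.41 ± 0.199 (SD, n = 4).

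The 4 basement membrane members overlapped between groups. Col4a1 was 61.4, 40.4, 34.9 and 49.5 TPM in Ad-Ctrl, 49.8, 51.9, 48.8 and 44.5 TPM in Ad-shmGULL, and 47.6, 49.8, 45.6 and 52.7 TPM in rescue mice. Col4a2, the second chain of the collagen IV trimer, was 45.9, 29.8, 29.5 and 35.9 TPM, 30.7, 31.0, 34.2 and 32.4 TPM, and 33.2, 30.5, 32.8 and 35.7 TPM in the same order. For both chains the knockdown and rescue values fell inside the range of the controls. The knockdown log2 fold change was 0.09 for Col4a1 (95% interval -0.21 to 0.39) and -0.11 for Col4a2 (95% interval -0.37 to 0.15). The RefSeq spans of these divergent genes overlap by 85 bp on chromosome 8, and their ratio, Col4a1 over Col4a2, ranged from 1.18 to 1.67. Means of this ratio were 1.31 ± 0.0893, 1.52 ± 0.144 and 1.48 ± 0.106 (SD, n = 4) in control, knockdown and rescue mice, and the difference was not tested. The laminin chains Lamc1 (means 16.2, 18.3 and 17.3 TPM) and Lamb1 (4.08, 4.56 and 4.15 TPM), which build the sheet that epithelial and endothelial cells sit on, gave 0.18 and 0.14 on the log2 scale in the knockdown (adjusted p = 0.357 and 0.613). The 4 values without Ad-Ctrl mouse 1 were 0.23 for Col4a1, 0.02 for Col4a2, 0.28 for Lamc1 and 0.23 for Lamb1, with adjusted p from 0.0855 to 0.919.

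Col14a1 (chr15:55307644-55520803), a collagen that decorates fibril surfaces, is known from fibroblasts and stellate cells. It was 48.8, 34.0, 34.4 and 39.0 TPM in Ad-Ctrl, 50.8, 50.7, 48.2 and 49.2 TPM in Ad-shmGULL, and 43.9, 45.5, 44.4 and 38.8 TPM in rescue mice. Ad-Ctrl mouse 1 lay within the knockdown range, the other 3 controls below it, and every rescue mouse below every knockdown mouse. On the log2 scale the difference was 0.36 after knockdown (SE 0.11, adjusted p = 0.0823; 0.46 with adjusted p = 0.0139 without Ad-Ctrl mouse 1) and -0.20 in rescue minus knockdown (SE 0.11, adjusted p = 0.507). Col6a1, a chain of the beaded microfibrils of collagen VI, was 10.6, 5.27, 5.51 and 7.68 TPM in controls, 8.54, 8.28, 8.06 and 6.96 TPM after knockdown, and 6.50, 8.05, 8.58 and 6.31 TPM in rescue mice. Its 3 groups overlapped, with a log2 fold change of 0.16 after knockdown (adjusted p = 0.676), and 0.34 without Ad-Ctrl mouse 1 (adjusted p = 0.183). The other chains of that trimer gave 0.34 for Col6a3 (means 6.12, 7.83 and 7.88 TPM) and 0.20 for Col6a2 (2.49, 2.93 and 2.72 TPM), with adjusted p of 0.330 and 0.564. Col6a2 was at 0.35 without that mouse (adjusted p = 0.181).

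Among the small leucine-rich proteoglycans, which bind collagen fibrils and set their spacing, the abundant pair did not separate the groups. Dcn (decorin) was 53.0, 32.9, 48.8 and 52.7 TPM in Ad-Ctrl, 32.5, 57.8, 47.9 and 46.6 TPM in Ad-shmGULL, and 51.0, 50.1, 51.5 and 53.8 TPM in rescue mice. Bgn (biglycan) was 51.5, 32.1, 41.1 and 47.7 TPM, 39.4, 55.3, 45.9 and 45.6 TPM, and 46.0, 47.2, 47.3 and 42.4 TPM. Ad-Ctrl mouse 2 and Ad-shmGULL mouse 1 were the lowest of their groups for both genes, and the rescue mice were close together. Knockdown log2 fold changes were -0.02 for Dcn (95% interval -0.39 to 0.35) and 0.12 for Bgn (95% interval -0.17 to 0.41), and without Ad-Ctrl mouse 1 they were 0.04 and 0.21. Lum (lumican), 47337 bp from Dcn on chromosome 10, was less even, with means of 7.52 ± 3.61, 11.2 ± 3.54 and 10.1 ± 3.08 TPM (SD, n = 4) and a knockdown log2 fold change of 0.57 (SE 0.30, adjusted p = 0.306).

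Fn1 (chr1:71585473-71653280), which hepatocytes secrete into plasma as well as mesenchymal cells into matrix, was 502, 663, 650.2 and 594 TPM in Ad-Ctrl, 448, 587, 586 and 674 TPM in Ad-shmGULL, and 611, 627, 651 and 616 TPM in rescue mice. It was the one member for which Ad-Ctrl mouse 1 had the lowest control value. The knockdown log2 fold change was -0.08 (95% interval -0.34 to 0.19), and -0.16 without that mouse. Ecm1, a secreted glycoprotein that holds latent TGF-beta inactive in liver, was 98.8, 88.5, 81.3 and 103 TPM in controls, 108, 85.4, 113 and 93.3 TPM after knockdown, and 84.4, 80.9, 96.4 and 104 TPM in rescue mice. Its groups overlapped throughout, with log2 fold changes of 0.10, -0.13 and -0.03 in the 3 comparisons. Sparc, a collagen-binding matricellular protein, had means of 49.3 ± 16.5, 67.3 ± 15.9 and 64.0 ± 5.49 TPM. Its knockdown log2 fold change was 0.47 (SE 0.20, adjusted p = 0.210), and 0.67 without Ad-Ctrl mouse 1 (SE 0.16, adjusted p = 0.0350), and rescue minus control moved from 0.42 (adjusted p = 0.209) to 0.62 (adjusted p = 0.0432). Fbln5, which organizes elastic fibers, had means of 2.10, 2.94 and 2.50 TPM and a knockdown log2 fold change of 0.35 (adjusted p = 0.233).

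The lysyl oxidases form the crosslinks that stiffen collagen and elastin. Loxl1 (chr9:58287723-58313212), which acts mainly on elastin, was 2.05, 1.27, 0.927 and 1.71 TPM in Ad-Ctrl, 2.82, 2.41, 1.55 and 3.70 TPM in Ad-shmGULL, and 2.49, 2.51, 2.17 and 1.55 TPM in rescue mice. Of the knockdown mice, only mouse 3 lay within the control range. Its knockdown log2 fold change was 0.53 (SE 0.21, adjusted p = 0.176), past the study threshold, and 0.63 without Ad-Ctrl mouse 1, and it was -0.16 in rescue minus knockdown (adjusted p = 0.774). Lox itself was 0.753, 0.488, 0.604 and 0.472 TPM in controls, 0.550, 1.67, 1.01 and 1.06 TPM after knockdown, and 0.815, 0.860, 0.637 and 0.421 TPM in rescue mice, and was not tested. Knockdown mice 2, 3 and 4 were above every other mouse and knockdown mouse 1 was not.

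Mmp14 (ENSMUSG00000000957.11, chr14:54431598-54442456), a membrane-anchored metalloproteinase that cleaves fibrillar collagen and activates pro-MMP2, gave the clearest separation of the members. It was 17.0, 15.3, 15.9 and 14.5 TPM in Ad-Ctrl, 9.77, 12.7, 13.3 and 11.7 TPM in Ad-shmGULL, and 17.3, 17.0, 16.5 and 18.2 TPM in rescue mice. Each knockdown mouse lay below all control and all rescue mice, and the control and rescue ranges overlapped. Its log2 fold change was -0.38 after knockdown (SE 0.096, 95% interval -0.59 to -0.17, adjusted p = 0.0518), 0.51 in rescue minus knockdown (SE 0.096, 95% interval 0.30 to 0.72, adjusted p = 0.262) and 0.13 in rescue minus control (adjusted p = 0.398). By unadjusted p, Mmp14 ranked 10 of 16378 genes in rescue minus knockdown. The adjusted p after knockdown was just past 0.05 in the fit as planned and 0.0136 under median of ratios scaling, where the log2 fold change was -0.48. It was 0.0278 without Ad-shmGULL mouse 3. Over 9 other settings it ranged from 0.0136 to 0.174, under 0.05 in 4 of them, and over the 12 fits that left out a mouse from 0.0278 to 0.128.

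The other protease and inhibitor genes did not share that pattern. Timp3, a matrix-bound inhibitor, was 15.1, 11.5, 13.9 and 14.2 TPM in Ad-Ctrl, 12.5, 16.8, 14.1 and 16.2 TPM in Ad-shmGULL, and 15.0, 15.0, 15.4 and 17.6 TPM in rescue mice. The groups overlapped, with a knockdown log2 fold change of 0.12 (adjusted p = 0.607). Timp2, the inhibitor through which MMP14 binds pro-MMP2, had means of 8.16 ± 0.668, 9.45 ± 1.48 and 9.66 ± 0.408 TPM, and its rescue mice lay above its control mice (0.22, adjusted p = 0.219). Timp1, an inhibitor induced in injured liver, had means of 1.39 ± 0.988, 1.41 ± 0.669 and 2.37 ± 0.414 TPM, with log2 fold changes of 0.51 in rescue minus knockdown (adjusted p = 0.510) and 0.57 in rescue minus control (adjusted p = 0.199). Mmp2, the gelatinase that MMP14 activates, had means of 2.93 ± 1.01, 3.68 ± 1.25 and 2.89 ± 0.566 TPM, and a knockdown log2 fold change of 0.25 (adjusted p = 0.589; 0.38 without Ad-Ctrl mouse 1).

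**Figure D4:**
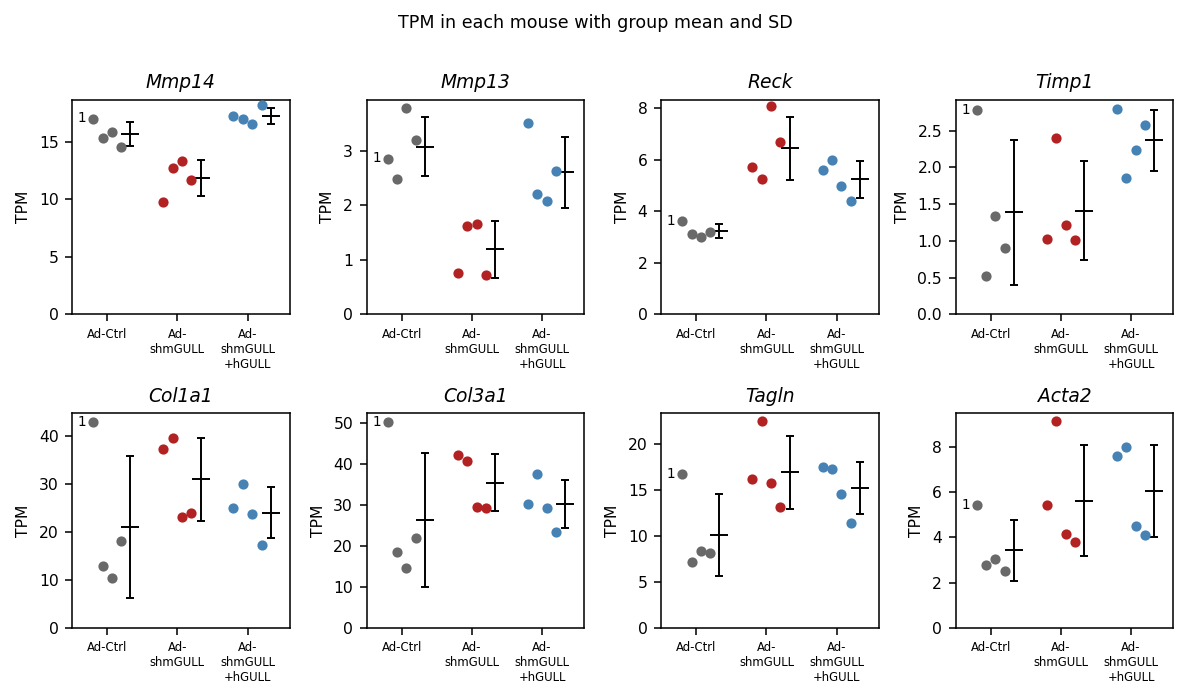
TPM in each mouse (dots, with Ad-Ctrl mouse 1 labelled) and the group mean with its SD (bars) for 8 genes, on axes that start at 0. The knockdown dots of Mmp14 and Mmp13 lie below those of both other groups, whereas for Col1a1, Col3a1, Tagln and Acta2 a single Ad-Ctrl mouse lies among the knockdown dots or above them.

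Of the stellate cell markers, Reln (chr5:21884454-22344705), a secreted glycoprotein made by stellate cells in liver, was 12.7, 12.2, 12.4 and 13.3 TPM in Ad-Ctrl, 16.4, 14.5, 14.8 and 16.7 TPM in Ad-shmGULL, and 13.8, 13.3, 15.3 and 13.9 TPM in rescue mice. Knockdown and control mice did not overlap, and the rescue mice overlapped with both. The log2 fold change after knockdown was 0.28 (SE 0.079, adjusted p = 0.0723, and 0.0785 without Ad-Ctrl mouse 1; 0.19 with adjusted p = 0.311 under median of ratios scaling), and -0.14 in rescue minus knockdown (adjusted p = 0.538). Lrat, the enzyme that stores retinol as retinyl ester, was 15.7, 7.50, 9.03 and 12.9 TPM in controls, 10.6, 17.3, 15.6 and 13.9 TPM after knockdown, and 10.6, 15.9, 9.87 and 11.6 TPM in rescue mice. Its groups overlapped, with a log2 fold change of 0.35 (adjusted p = 0.395). The PDGF receptors gave 0.13 for Pdgfrb (means 7.92, 8.75 and 9.69 TPM) and -0.01 for Pdgfra (3.21, 3.18 and 3.34 TPM) after knockdown. The intermediate filament gene Des gave 0.17 (3.52, 4.10 and 3.59 TPM). With Ad-Ctrl mouse 1 left out these were 0.21 for Pdgfrb, 0.03 for Pdgfra and 0.28 for Des.

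Tagln (ENSMUSG00000032085.5, chr9:45929628-45936058), an actin-binding protein of smooth muscle and myofibroblasts, had the largest knockdown log2 fold change of the tested members. It was 16.7, 7.16, 8.33 and 8.18 TPM in Ad-Ctrl, 16.2, 22.5, 15.8 and 13.2 TPM in Ad-shmGULL, and 17.5, 17.3, 14.6 and 11.5 TPM in rescue mice. Ad-Ctrl mouse 1 lay among the knockdown and rescue mice, and the other 3 controls lay below all of them. Its log2 fold change was 0.74 after knockdown (SE 0.23, adjusted p = 0.0984), 0.60 in rescue minus control (SE 0.23, adjusted p = 0.143) and -0.14 in rescue minus knockdown (adjusted p = 0.841). Without Ad-Ctrl mouse 1 the first was 0.99 (adjusted p = 0.0156) and the second 0.85 (adjusted p = 0.0246). Acta2 (chr19:34240336-34255585), alpha-smooth muscle actin and the classic label of activated stellate cells, was 5.43, 2.76, 3.05 and 2.49 TPM in controls, 5.43, 9.12, 4.16 and 3.79 TPM after knockdown, and 7.59, 8.01, 4.52 and 4.08 TPM in rescue mice. Here too only Ad-Ctrl mouse 1 overlapped with the other groups. Its log2 fold change was 0.56 after knockdown (SE 0.28, adjusted p = 0.279) and 0.67 in rescue minus control (SE 0.28, adjusted p = 0.160), and with the median of ratios scaling the second was 0.50 with an adjusted p of 0.393.

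Vim, the intermediate filament of mesenchymal cells, was 55.0, 30.3, 28.3 and 36.8 TPM in Ad-Ctrl, 32.2, 52.8, 45.4 and 43.4 TPM in Ad-shmGULL, and 42.4, 48.9, 42.0 and 40.8 TPM in rescue mice. The growth factor Tgfb1 was 18.3, 8.21, 10.9 and 13.5 TPM, 13.1, 16.8, 15.4 and 13.5 TPM, and 13.5, 15.1, 15.6 and 13.9 TPM. In both, Ad-Ctrl mouse 1 was the highest of all 12 mice and the groups overlapped. Knockdown log2 fold changes were 0.23 for Vim (adjusted p = 0.543) and 0.24 for Tgfb1 (adjusted p = 0.497). Without that mouse they were 0.42 (adjusted p = 0.112) and 0.42 (adjusted p = 0.106).

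Markers of other cell types were set beside the members. Endothelial markers summed to 215 to 366 TPM in Ad-Ctrl, 342 to 445 TPM in Ad-shmGULL and 342 to 398 TPM in rescue livers. All 12 were positive after knockdown, and 1 of them, the sinusoidal scavenger receptor Stab2, rose (0.54, adjusted p = 0.0476). Of all tested genes 2.44% were called higher in that comparison. Smooth muscle markers summed to 57.0 to 70.4, 71.1 to 82.8 and 72.6 to 84.0 TPM, and 1 of the 5 tested, the tropomyosin Tpm2, rose (0.96, adjusted p = 0.0248). Markers of portal fibroblasts and mesothelial cells summed to 41.6 to 57.5, 51.8 to 70.7 and 59.2 to 64.1 TPM, with 0 of 8 called. The 14 stellate cell markers outside the members summed to 319 to 397, 273 to 351 and 392 to 440 TPM. Of 13 tested, 6 were positive after knockdown and 0 were called. That sum was mostly Steap4, a metalloreductase, so it follows this gene more than the list. Steap4 was at 210.2 ± 19.7, 164 ± 22.2 and 272 ± 19.6 TPM (adjusted p = 0.0851 after knockdown and 0.0142 under median of ratios scaling). The stellate members Lrat and Reln averaged 12.5 and 14.1 TPM over all mice, and which cells gave the Steap4 RNA was not tested. Next in the sum was the lectin Colec11 (42.3 ± 6.13, 40.5 ± 8.80 and 35.3 ± 1.48 TPM). Lymphocyte markers summed to 91.0 TPM in Ad-Ctrl mouse 1 and to 30.7 to 63.6 TPM in the other 11 mice. Sums for macrophage markers (939 to 1486, 965 to 1510 and 1102 to 1346 TPM) and neutrophil markers (111 to 246, 128 to 282 and 97.4 to 150.0 TPM) overlapped between groups, with 0 genes called. Cholangiocyte markers (21.9 to 28.6, 21.2 to 38.8 and 28.9 to 34.1 TPM), also with 0 called, summed higher in every rescue mouse than in the control mice. In rescue minus control, 21.4% of all tested genes were apart and higher. When Ad-Ctrl mouse 1 was left out, 5 endothelial, 2 smooth muscle and 1 macrophage marker were called higher after knockdown and 2 hepatocyte markers lower. In that fit 4.76% of all genes were called higher, and 166 of 16378 lower. That mouse was high in the endothelial, smooth muscle and macrophage lists and low in hepatocyte markers. Leaving it out therefore tends to move these lists further in the called directions, and the added calls are no separate support. No marker was at 0 in all mice, and the part of these cell types in the results above was not tested.

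Genes past an adjusted p under 0.05 were found in other lists of the matrix pathway. After knockdown 2.44% of all tested genes were called higher and 0.794% lower. The lists were chosen with earlier results of these data known, so their counts are description only. After knockdown, Col27a1, a fibrillar collagen of cartilage, rose from 16.6 ± 2.2 to 29.6 ± 2.88 TPM (0.80, SE 0.11, adjusted p = 0.0068), and it was 1 of 9 other collagens tested. In rescue livers it was 26.2 ± 2.68 TPM. Of 43 other matrix glycoproteins and proteoglycans 4 rose and 0 fell. They were Fbln2 (0.78, adjusted p = 0.0469), the basement membrane proteoglycan Hspg2 (perlecan, 0.69, adjusted p = 0.0353), the laminin chain Lamb3 (0.66, adjusted p = 0.0295) and the basement membrane linker Nid2 (0.61, adjusted p = 0.0176). All 5 remained under 0.05 without Ad-Ctrl mouse 1 and under median of ratios scaling. Over all tested genes, 399 were called higher after knockdown, but 27 with only the 2 groups compared. Without Ad-Ctrl mouse 2, 3 or 4 the number was 126, 128 or 146. For the genes called outside the members, values in those settings are not given here. When Ad-Ctrl mouse 1 was left out, 2 other collagens and 4 glycoproteins and proteoglycans were called higher, where 4.76% of all genes were.

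In matrix proteolysis, 2 of 23 tested genes rose after knockdown and 1 fell, where 2.44% of all genes were called higher and 0.794% lower. Mmp13, the main interstitial collagenase of rodents, was 2.86, 2.49, 3.78 and 3.19 TPM in Ad-Ctrl, 0.756, 1.63, 1.66 and 0.723 TPM in Ad-shmGULL, and 3.52, 2.2, 2.08 and 2.64 TPM in rescue mice. Its knockdown mice lay below all others, as those of Mmp14 did, with a log2 fold change of -0.92 (SE 0.19, adjusted p = 0.0269), and it was 0.74 in rescue minus knockdown (adjusted p = 0.318). Reck, a membrane-anchored inhibitor of metalloproteinases, was 3.62, 3.10, 3.0 and 3.18 TPM, 5.71, 5.26, 8.06 and 6.69 TPM, and 5.59, 6.00, 4.96 and 4.39 TPM. It rose after knockdown (0.80, SE 0.13, adjusted p = 0.0123), and the rescue mice overlapped with the knockdown mice and not with the controls. The membrane-type metalloproteinase Mmp15 rose by less (0.40, adjusted p = 0.0227, and 0.0950 under median of ratios scaling). None of 22 genes of collagen processing and crosslinking was called (without Ad-Ctrl mouse 1 it was 2 higher, beside 4.76% of all genes). The most abundant over all 12 mice were the prolyl hydroxylase subunit P4hb and the transglutaminase Tgm2. Their means were 1150 and 117 TPM in Ad-Ctrl and 1215 and 125 TPM in Ad-shmGULL.

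Of 29 tested genes of TGF-beta and PDGF signaling, 4 rose after knockdown and 0 fell. Of all tested genes 2.44% were called higher and 0.794% lower. The inhibitory Smad6 gave 0.72 (adjusted p = 0.0388, but 0.0537 without Ad-Ctrl mouse 1 and 0.0645 under median of ratios scaling). The integrin Itgb5, which can bind latent TGF-beta, gave 0.59 (adjusted p = 0.0282), the ubiquitin ligase Smurf1 gave 0.46 (adjusted p = 0.0231), and the receptor Tgfbr2 gave 0.46 (adjusted p = 0.0498). In rescue minus control, Col27a1 (0.63, adjusted p = 0.0381), Nid2 (0.62, adjusted p = 0.0381) and Mmp15 (0.40, adjusted p = 0.0390) rose. All 3 had an adjusted p over 0.1 under median of ratios scaling, and 2.12% of all genes were called higher in that comparison. Without Ad-Ctrl mouse 1, 6.38% of all genes were called higher in rescue minus control. In these lists they were 2 other collagens, 3 glycoproteins and proteoglycans and 1 gene of collagen processing. A further 2 belonged to proteolysis and 2 to TGF-beta and PDGF signaling. In rescue minus knockdown no gene of these lists was called. The most abundant in each, Col18a1, Vtn, P4hb, Plg and Itgb1, had adjusted p of 0.845, 0.833, 0.852, 0.662 and 0.858.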

How the data were processed

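Liver RNA of 12 mice, 4 per group, was sequenced from strand-specific libraries. Per the labels and the methods of the study, the authors trimmed reads with fastp 0.23.2, checked them with FastQC 0.11.8, aligned them with HISAT2 2.2.1.0 to GRCm38.p6 and counted them on GENCODE VM24 genes. The submitters' processing notes name featureCounts and Subread 2.0. The authors deposited TPM, which correct for gene length and sum to the same total in every library. Depth is therefore unknown, no counting interval can be given, and precision is the spread between mice. Libraries held 15525 to 16929 genes above 1 TPM, and their 20 highest genes took 24.6% to 34.2% of the total. This share was 29.4% to 32.9% in Ad-Ctrl, 26.3% to 34.2% in Ad-shmGULL and 24.6% to 26.6% in rescue livers. The test used by the study is not given in the sources used here. The animal methods give the route of the virus as intravitreal and the virus methods as retro-orbital.

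Groups came from the sample labels. Values were analysed as log2(TPM + 1) in R 4.3.3 with limma 3.58.1 (3 groups in 1 linear model, mean-variance trend, 9 residual degrees of freedom) for genes averaging 1 TPM or more, with p-values two-sided and Benjamini-Hochberg adjusted over all tested genes. Log2 fold changes on this scale understate the change of low genes. The study threshold was 0.5 on the log2 scale in either direction with p under 0.05. Members at either call rule and the 2 most abundant of each role are given per mouse. From other lists, at most 4 genes per comparison with adjusted p under 0.05 are named, or else the most abundant. Tpm2, Stab2 and Steap4 come from marker lists. The members and lists were chosen with earlier results of these data known. The procedure was tested on simulated data in which every value was drawn independently. That setting holds no mouse that is high across many genes, so it cannot speak for the effect of such a mouse. Promoters were read with Python 3.11.15 from RefSeq tables, and figures were drawn with matplotlib 3.10.9. Nothing in the labels says that a replicate number marks a shared litter or batch. Alternatives were log2(TPM + 0.1), no filter, an average of 5 TPM or more, median of ratios, quantile and protein-coding rescaling, only the groups compared, no trend, a replicate block and leaving out each mouse. List counts without Ad-Ctrl mouse 1 and under median of ratios scaling were added after seeing the data.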

Additional observations from a re-analysis of the deposited data

Results flagged for a closer look

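Within 105 sets of 4 mice (35 members in 3 groups), 4 held a mouse whose distance from its nearest neighbor, relative to the range of the group, was past the 95% critical value of 0.829. Chance alone passes it in about 1 in 20 sets. Tagln, the actin-binding protein, was 16.7 TPM in Ad-Ctrl mouse 1 and 7.16 to 8.33 TPM in the other 3 control mice. This is the mouse that was the highest control for 31 of the 35 members. Timp1, the protease inhibitor, was 2.41 TPM in Ad-shmGULL mouse 2 and 1.0 to 1.21 TPM in the other knockdown mice. Timp3, the matrix-bound inhibitor, was 17.6 TPM in Ad-shmGULL+hGULL mouse 4 and 15.0 to 15.4 TPM in the other rescue mice. Pdgfrb, the PDGF receptor of stellate cells, was 10.4 TPM in Ad-shmGULL+hGULL mouse 1 and 9.34 to 9.52 TPM in the other rescue mice.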

How the results depend on the processing

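In knockdown minus control, the 2 members higher at the study threshold became 1 when an average of 5 TPM was required, 1 with median of ratios scaling and 1 with quantile normalization, and ranged from 1 to 11 when a mouse was left out. The 0 members higher at an adjusted p under 0.05 ranged from 0 to 6 when a mouse was left out. The 0 lower became 1 when an average of 5 TPM was required, 1 with median of ratios scaling, 1 with quantile normalization and 1 with rescaling to the protein-coding sum, and ranged from 0 to 1 when a mouse was left out. That member was Mmp14 each time. In rescue minus knockdown, the 1 member higher at the study threshold became 0 with median of ratios scaling, 0 with quantile normalization, 0 with protein-coding rescaling and 2 with only the groups compared, and ranged from 0 to 2 when a mouse was left out. In rescue minus control, the 2 members higher at the study threshold became 0 with median of ratios scaling, 0 with quantile normalization, 3 with log2(TPM + 0.1) and 3 with no trend, and ranged from 0 to 8 when a mouse was left out. The 0 members higher at an adjusted p under 0.05 ranged from 0 to 2. Each member named at the study threshold kept its sign in that comparison under every alternative that tested it, and Loxl1 was not tested when an average of 5 TPM was required. Among values not called, 1 member after knockdown, 7 in rescue minus knockdown and 15 in rescue minus control turned in sign under median of ratios scaling, and 1, 7 and 14 did under quantile normalization. The causes were not tested.

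The replicate numbers gave no clear sign of pairing, though such correlations cannot exclude a shared litter or batch. Deviations of same-numbered mice correlated at -0.244 to 0.154, and 4 of 12 mice correlated best with their own number. With the replicate block, the study threshold was passed upward by 5 of 34 members after knockdown (5.37% of all genes), 1 in rescue minus knockdown (2.44%) and 2 in rescue minus control (6.85%), and 0 members had an adjusted p under 0.05. Depth is unknown in TPM, so what it limits could not be given.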
